A study of Mus musculus with 4 samples.

Results

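T cell receptor V segment usage was read from RNA sequencing of regulatory T cells (Treg) of the mouse spleen. Treg are CD4+ T cells that carry the transcription factor Foxp3 and restrain immune responses. Members were all genes of the count table whose symbol starts with Trav, the V segments of the receptor α chain, or Trbv, those of the β chain. They numbered 125 of 38924 genes, 103 Trav on chromosome 14 and 22 Trbv on chromosome 6. The table held 21 of the 22 Trbv and 98 of the 108 Trav annotated as functional in GENCODE M21. Segments without a row are left out of every share. Activated Treg (CD4+Foxp3+, phenotype activated) were compared with resting Treg (CD4+Foxp3+, phenotype resting), with 2 libraries from independent animals in each group. The sort gate in the labels is identical for both populations, and they give no strain, age, reporter allele or number of pooled animals. The design compares the transcriptomes of both populations; here the V segments in their receptor transcripts are compared.

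Each T cell builds its receptor by joining one V segment to a J segment in the α chain, and to a D and a J segment in the β chain. The V segment encodes most of the variable domain, including the loops that mainly touch the MHC molecule, and its 3′ end opens the hypervariable loop CDR3, which mainly touches the peptide. A cell therefore transcribes mostly one rearranged β chain, and the share of reads on a segment in a sorted population follows how many cells carry it and how much receptor RNA they hold. In bulk samples fewer cells of a type and less RNA per cell cannot be told apart. Usage of β chain segments is also known to differ between mouse strains, because superantigens of endogenous retroviruses delete T cells by their V segment.

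The ends of the Trbv segments that the results turn on are shown first, since they begin CDR3. Each run is the last 30 bases of an annotated transcript in mm10, read on the strand of the gene (in Trbv31 they end 2 bases before the end of the gene model). The motif TGTGCN, a cysteine codon followed by an alanine codon, is in capitals; it was searched on the transcript strand alone, in the last 30 bases.
Trbv13-2, chr6:41121803-41121832, plus strand: catcagtgtacttcTGTGCCagcggtgatg
Trbv3, chr6:41048799-41048828, plus strand: gtgtacttcTGTGCCagcagcttagccaca
Trbv2, chr6:41047966-41047995, plus strand: ggccacatacttcTGTGCCagcagccaaga
Trbv17, chr6:41163527-41163556, plus strand: tgccatgtacctcTGTGCTagcagtagaga
Trbv29, chr6:41271852-41271881, plus strand: atctgtgtacttcTGTGCTagcagtttatc
Trbv26, chr6:41227964-41227993, plus strand: agcactgtacctcTGTGCCagcagtctgtc
Trbv31, chr6:41557693-41557722, minus strand: ctctggcttctacctcTGTGCCtggagtct
Trbv10, chr6:41092199-41092228, plus strand: ccatgtacttctgggccagcagtgaacaaa
The motif was held by 18 of the 22 Trbv counted, and by 26 of the 35 Trbv annotated in GENCODE M21 (74.3%). The segments without it were Trbv1, Trbv20 and Trbv30, which are annotated as functional, and Trbv10, the only Trbv pseudogene in the table. Among Trav segments 82 of 103 in the table held it, and 100 of the 128 annotated (78.1%).

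Library totals were 29332058 and 20282062 counts in activated A and B, and 20699024 and 31851982 in resting A and B; the letters A and B serve as names and imply no pairing. Foxp3 was at 37.5 and 36.7 CPM (counts scaled to a common library size) in activated Treg, against 38.8 and 35.1 CPM in resting Treg. Over all 14235 genes tested, edgeR's quasi-likelihood test with Benjamini-Hochberg adjustment called 0 genes, which is 0%. Its unadjusted p was under 0.05 for 6.3% of genes in the higher direction and 2.61% in the lower one, and DESeq2 called 2.71% of the genes it adjusted. Markers of other cells differed between libraries. The macrophage list of 5 genes summed to 301 and 18.7 CPM in activated A and B, against 377 and 8.19 CPM in resting A and B. The list of 5 plasmacytoid dendritic cell genes summed to 751 and 237 CPM in activated Treg, against 85.1 and 95.8 CPM in resting Treg.

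V segment reads were a small part of every library, 0.0913% to 0.117% of counts for Trbv and 0.0229% to 0.0304% for Trav. Trbv segments drew 26778 and 23726 counts in activated Treg, against 20149 and 34582 counts in resting Treg. Trav segments drew 6720 and 6174 counts in activated Treg, against 4784 and 7643 counts in resting Treg. The summed Trbv level was 1023 ± 208 CPM in activated Treg and 1054 ± 106 CPM in resting Treg (SD, n = 2 each; two-sided exact permutation p = 1.0). The summed Trav level was 262 ± 60.0 CPM in activated Treg and 241 ± 12.0 CPM in resting Treg (SD, n = 2 each; two-sided exact permutation p = 1.0). In both chains the groups overlapped, and with plain library totals in place of TMM scaling the Trbv difference changed sign, to 11.8 CPM higher in activated Treg. With 2 libraries against 2 this exact test cannot go below p = 0.333, so a missed p does not show that the levels were alike.

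V segment reads were then set against the constant regions, which every rearranged transcript carries. Trbv CPM per CPM of Trbc1 and Trbc2 was 0.789 and 0.816 in activated Treg, against 0.809 and 0.807 in resting Treg. Trav CPM per CPM of Trac was 0.299 and 0.276 in activated Treg, against 0.316 and 0.284 in resting Treg. The groups overlapped in both ratios. Trac, Trbc1, Trbc2 and the CD3 chain genes Cd3d, Cd3e, Cd3g and Cd247, which carry the signal of the receptor, had edgeR adjusted p over all genes between 0.6506 (Cd247) and 0.9991 (Trbc1). J segment genes summed to 106 and 94.5 CPM for Traj and 201 and 203 CPM for Trbj in activated Treg, against 103 and 85.1 CPM for Traj and 218 and 209 CPM for Trbj in resting Treg.

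Of the 125 members, 84 passed the filter on low counts, 63 Trav and 21 Trbv; the other 41 had too few counts and 22 of them, all Trav, had none in any library. No member was called by edgeR over all genes. The smallest adjusted p was 0.3782 for a Trav segment (Trav7n-4) and 0.5679 for a Trbv segment (Trbv2). DESeq2 called 0 members as well, with a smallest adjusted p of 0.2302. At an unadjusted edgeR p under 0.05, 1 member was higher (Trav7n-4) and 0 were lower. A further edgeR fit over all genes took each chain's total as the offset, which tests usage and not level. It called 0 genes in all, and so 0 members (smallest adjusted p of a member 0.4159). The median log2 fold change was 0.02 over the tested Trav and -0.11 over the tested Trbv, against -0.01 over all genes tested.

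Counting the members whose CPM did not overlap between groups gave 8 Trav higher and 14 lower of 63 tested, and 0 Trbv higher and 7 lower of 21. Over all genes tested this held for 19.8% higher and 17.4% lower, so the Trav shares of 12.7% and 22.2% lay on either side of that background. The Trbv share of 33.3% lower lay above it and that of 0% higher lay below it, while the single-gene tests called none. By usage, that is each segment's share of its chain's counts, 9 Trav were higher, 18 were lower and 36 overlapped among the tested ones. For Trbv the counts were 3 higher, 7 lower and 11 overlapping. A share has no counterpart in other genes, so no share over all genes stands beside these counts. With 2 libraries against 2, groups that do not differ separate fully, in either direction, with probability 0.333. Segments without overlap would therefore be common even if the groups did not differ. In both chains the part of tested segments without overlap was above this probability. Shares within a chain depend on each other, so the probability does not test the counts.

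The most used β chain segments were the same in both populations. Levels between segments are compared per base of gene model, as a length-adjusted share of the chain. Trbv13-2 was first in every library, at 12.8% and 16.3% in activated Treg, against 11.8% and 13.8% in resting Treg. Trbv3 followed at 10.1% and 9.36% in activated Treg, against 8.51% and 9.51% in resting Treg. Trbv5 ranked next in the mean over the libraries, at 8.71% and 7.23% in activated Treg, against 8.55% and 8.13% in resting Treg. Trbv3 and Trbv5 touched in range across libraries (Trbv5 reached 8.71% and Trbv3 went down to 8.51%), while Trbv13-2 lay above both. Of the 50-base windows of Trbv5 only 22.6% occur in no other annotated transcript, because most are shared with the overlapping transcript 5830405F06Rik.

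As shares of all Trbv counts, with no length adjustment, the leading segments overlapped between the groups. Trbv13-2 took 11.1% and 14.1% in activated Treg, against 10.3% and 12.0% in resting Treg. Trbv3 took 11.7% and 10.9% in activated Treg, against 9.87% and 11.0% in resting Treg. Trbv19 took 7.21% and 8.79% in activated Treg, against 6.90% and 7.69% in resting Treg. For Trbv13-2 the fitted log2 change in usage was 0.18, with a 95% interval from -0.34 to 0.70. The interval for Trbv3 ran from -0.32 to 0.55.

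**Figure D1:**
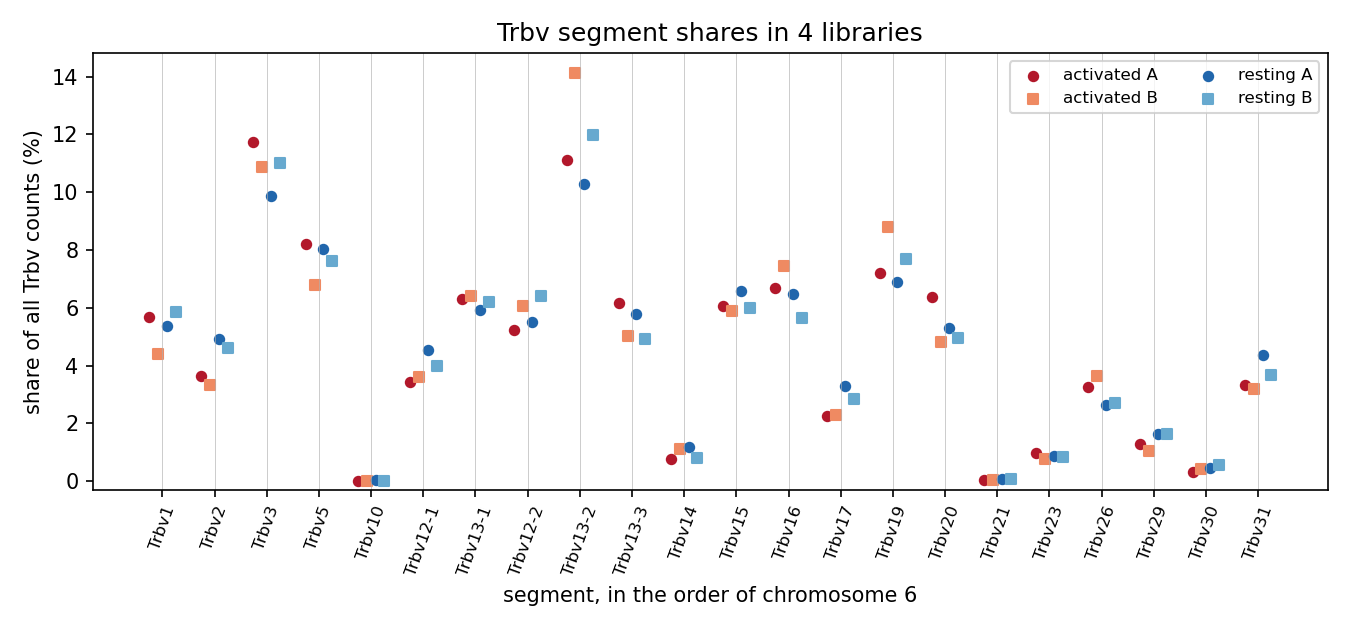
Share of all Trbv counts (vertical axis, %) of the 22 Trbv segments in the order of chromosome 6, with 1 point for each library, the activated pair left of the resting pair. Trbv13-2 and Trbv3 stand highest, and the points of Trbv2, Trbv17 and Trbv29 in the activated libraries lie below those in both resting libraries.

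Trbv2 had the smallest p among the β chain segments. It took 3.63% and 3.32% of Trbv counts in activated Treg, against 4.93% and 4.61% in resting Treg. Neither activated library reached the lower resting one, and the exact 95% counting intervals did not meet (3.10% to 3.86% over the activated libraries, 4.39% to 5.24% over the resting ones). The log2 change in usage was -0.45 ± 0.18 (SE), with a 95% interval from -0.92 to 0.01, and the edgeR adjusted p for its level over all genes was 0.5679. These intervals on shares, as all others here, cover counting error only. They leave out the spread between animals, and the reads come from PCR without molecular identifiers. Counting intervals that do not meet are therefore no test of the groups.

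Trbv17, Trbv29, Trbv31 and Trbv12-1 also had lower shares with no overlap. Trbv17 took 2.25% and 2.29% in activated Treg, against 3.30% and 2.86% in resting Treg (edgeR adjusted p 0.7138). Trbv29 took 1.27% and 1.04% in activated Treg, against 1.63% and 1.64% in resting Treg (edgeR adjusted p 0.6423). Trbv31, which lies behind the constant regions in the opposite orientation and joins by inversion, took 3.33% and 3.19% in activated Treg, against 4.36% and 3.68% in resting Treg. In Trbv12-1 the shares were 3.43% and 3.61% in activated Treg, against 4.55% and 3.99% in resting Treg. None of the 4 passed over all genes. The remaining segments of this kind were rare: Trbv30 took 0.314% and 0.413% in activated Treg, against 0.447% and 0.555% in resting Treg, and Trbv21 had 8 and 8 counts in activated Treg, against 12 and 20 counts in resting Treg.

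The segments with higher, non-overlapping shares were Trbv16, Trbv26 and Trbv13-1. Trbv26 took 3.24% and 3.64% in activated Treg, against 2.63% and 2.69% in resting Treg (log2 change in usage 0.37, 95% interval -0.11 to 0.86). Trbv16 took 6.69% and 7.43% in activated Treg, against 6.48% and 5.65% in resting Treg. Trbv13-1 differed least, at 6.29% and 6.40% in activated Treg, against 5.92% and 6.21% in resting Treg. The step between groups was smaller than that between the resting libraries in Trbv13-1, and in Trbv16 the resting libraries differed by more than activated A and resting A did. Summed over its 3 members the Trbv13 family took 23.6% and 25.5% in activated Treg, against 22.0% and 23.1% in resting Treg.

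The remaining functional Trbv segments in the table, Trbv1, Trbv5, Trbv12-2, Trbv13-3, Trbv14, Trbv15, Trbv20 and Trbv23, had overlapping shares, as did the 3 leading ones above. They ranged from Trbv23, at 0.986% and 0.763% in activated Treg against 0.883% and 0.821% in resting Treg, to Trbv5, at 8.20% and 6.79% in activated Treg against 8.02% and 7.61% in resting Treg. Trbv10 had 0 counts in both activated libraries, against 4 and 2 counts in resting Treg. The limit of 3 counts set for a count of 0 is a share of 0.0112% in activated A and 0.0126% in activated B. For 18 of the 21 tested Trbv the whole 95% interval of the log2 change in usage lay between -1 and 1. A change of 2-fold or more lay outside the interval there. For Trav segments this held for 11 of 63.

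**Figure D2:**
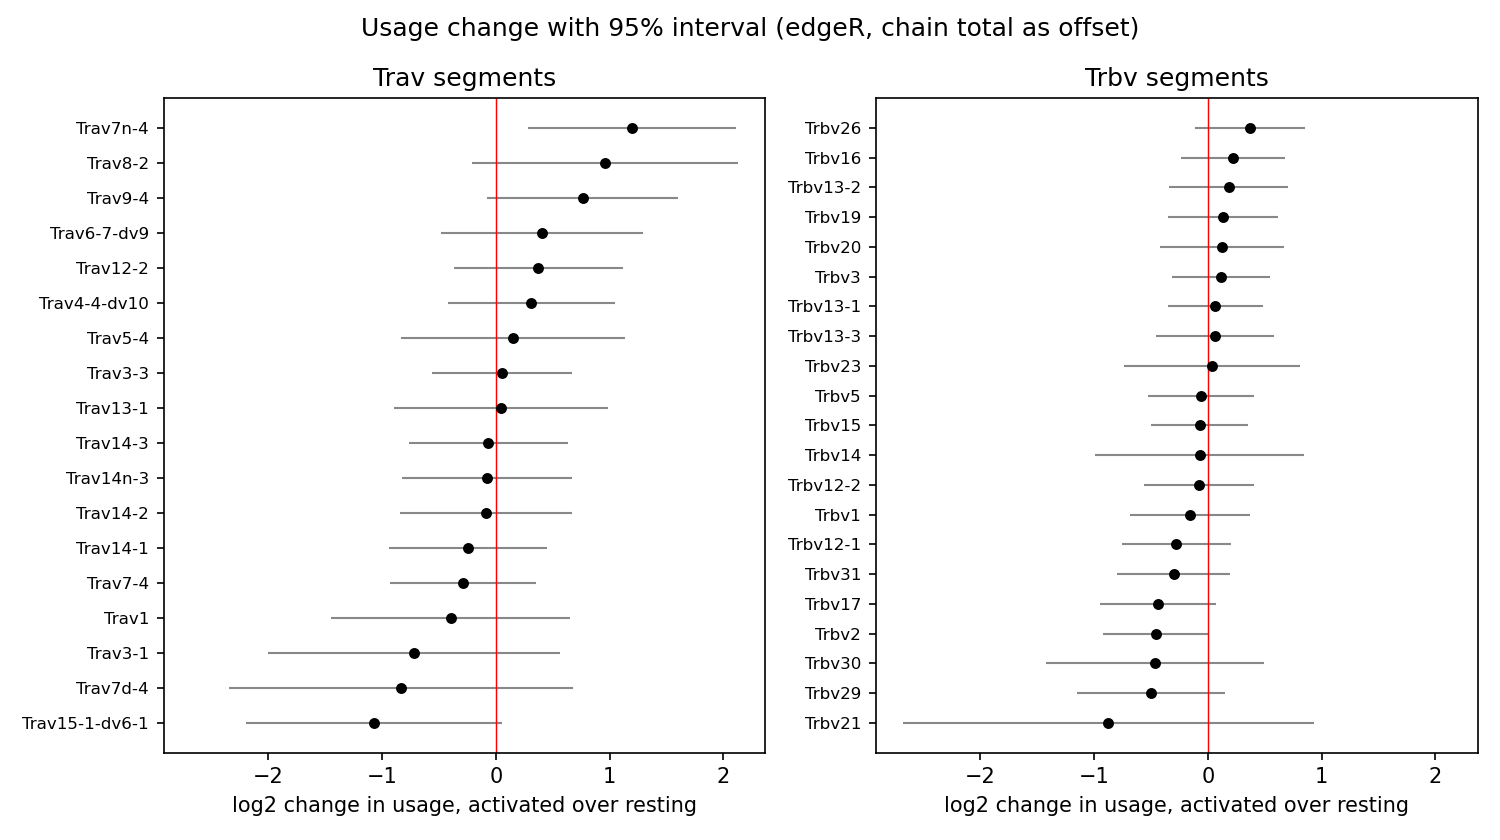
Log2 change in usage, activated over resting (horizontal axis), with its 95% interval from the edgeR fit with chain totals as offset, for the Trav segments named in the text that were tested (left) and all 21 tested Trbv segments (right). Trav7n-4 is the one segment shown whose interval lies wholly above 0, and Trbv2 reaches just past 0, to 0.01.

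The α chain repertoire was spread over more segments than the β chain. The effective number of segments, the exponential of the Shannon entropy of the shares, is the number of equally used segments that would be as diverse. For Trav it was 44.6 and 42.3 in activated Treg, against 46.7 and 45.0 in resting Treg. For Trbv it was 16.2 and 15.9 in activated Treg, against 17.0 and 16.5 in resting Treg. The activated libraries were lower in both chains without overlap, with means of 43.4 ± 1.65 in activated and 45.9 ± 1.18 in resting Treg for Trav, and 16.0 ± 0.235 in activated and 16.8 ± 0.381 in resting Treg for Trbv (SD, n = 2 each). Each gave a two-sided exact permutation p of 0.333, the smallest that 2 against 2 allows. The Trav difference of -2.41 was -1.21 with copies summed, -0.198 over subgroups, -1.25 without activated B and -1.58 without resting A, and the Trbv difference of -0.749 was -0.479 without resting A. The 5 most used Trbv took 45.0% and 48.0% of counts in activated Treg, against 41.6% and 44.7% in resting Treg, and the lowest activated value lay only just above the highest resting one. The 5 most used Trav took 25.4% and 26.2% in activated Treg, against 24.4% and 25.7% in resting Treg, with the groups overlapping.

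The difference in usage between any 2 libraries was then measured as the percentage of a chain's counts that would have to move to other segments to make the shares equal. For Trav it was 10.7% to 14.6% over the 4 pairs of an activated with a resting library. It was 13.1% between the activated libraries and 9.07% between the resting ones. For Trbv it was 5.87% to 9.73% over the mixed pairs, 7.35% between the activated libraries and 5.48% between the resting ones. Thus activated A was closer in Trbv usage to resting A (6.26%) and to resting B (5.87%) than to activated B. The chi-square per degree of freedom, which is about 1 when libraries differ only as independent reads would, was 2.77 for Trav and 9.35 for Trbv between the resting libraries. Between the activated libraries it was 5.84 for Trav and 18.2 for Trbv. Reads of amplified libraries are not independent molecules and the libraries come from separate animals, so these values describe the spread and test nothing. The percentage of differing usage was also taken over subgroups, that is segments summed by the first number in their name. For Trav it was 9.01% between the activated libraries, above the mixed pairs at 5.82% to 8.26%. For Trbv it was 6.20% between the activated libraries, within the mixed pairs at 5.02% to 8.40%.

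**Figure D3:**
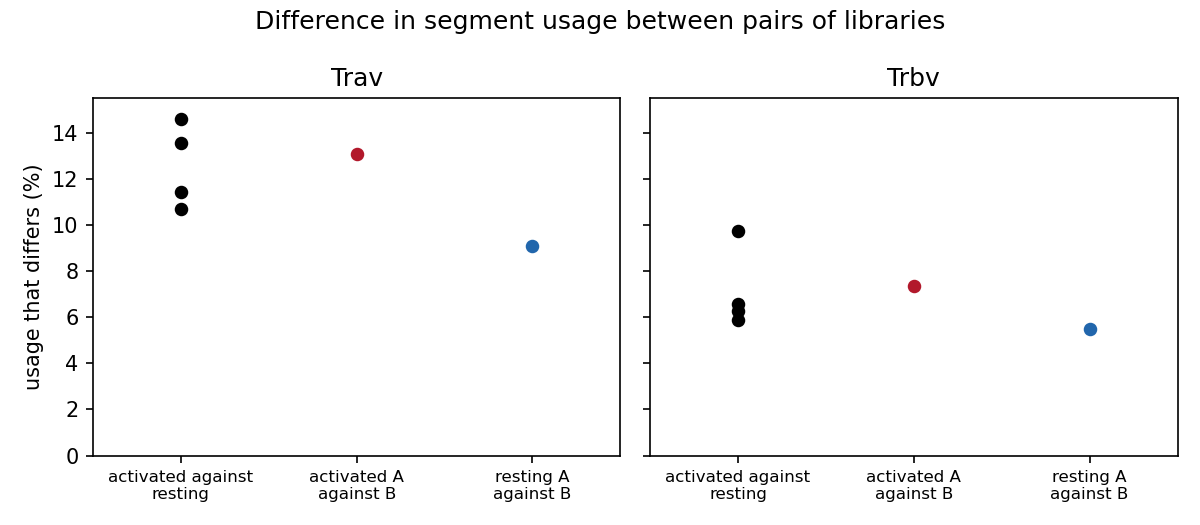
Percentage of usage that differs (vertical axis) for each pair of libraries, Trav left and Trbv right; black points are the 4 pairs of an activated with a resting library. The red point, activated A against activated B, lies within the range of the black points in both chains, and the blue point, resting A against resting B, lies below them.

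The Trav locus needs care, because its central part is multiplied in the mouse reference genome. The added copies carry d or n in their names, and many differ from the plain segment by few bases. The treatment of reads that map to several places is not stated. The share of a segment's 50-base windows found in no other annotated transcript went with its count. The 31 Trav segments without any window of their own had at most 2 counts each over the 4 libraries, and 11 counts together. The 12 segments with some but under 20% had a median of 24.5 counts, the 19 from 20% to under 50% a median of 235 and the 41 with 50% or more a median of 256. Of the 22 Trbv segments 21 had at least 50%. For a Trav segment with little sequence of its own, rare use and unassigned reads cannot be told apart.

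**Figure D4:**
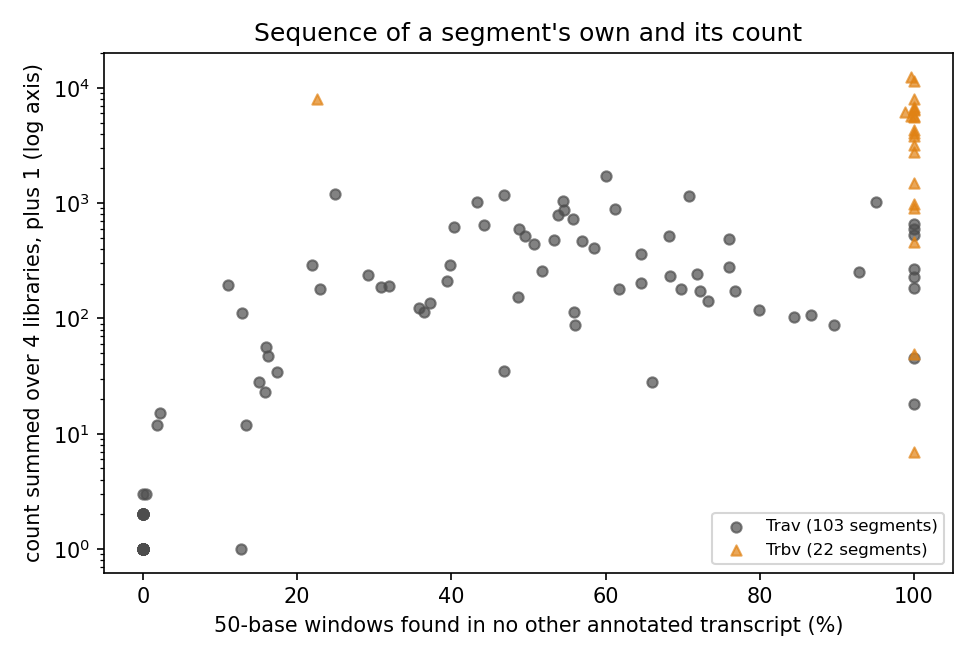
Count summed over the 4 libraries plus 1 (vertical log axis) against the percentage of a segment's 50-base windows found in no other annotated transcript (horizontal axis), for 103 Trav (circles) and 22 Trbv (triangles). Trav segments at 0% have at most 2 counts, while Trbv5 at 22.6% has 8055.

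Trav11 is a case in point. It is the α chain segment that invariant NKT cells join to Traj18, with a β chain that mostly uses Trbv13, Trbv29 or Trbv1. Trav11 and its copy Trav11d were identical over the 342 bases compared, and 60 of these are shown with the conserved cysteine codon in capitals.
Trav11, chr14:53519799-53519858, plus strand: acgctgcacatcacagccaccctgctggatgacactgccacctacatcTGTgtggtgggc
Trav11d, chr14:52824853-52824912, plus strand: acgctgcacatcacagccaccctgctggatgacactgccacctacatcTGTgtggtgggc
Trav11 had 1 and 0 counts in activated Treg, against 0 and 0 counts in resting Treg, and Trav11d had 0 and 0 counts in activated Treg, against 0 and 1 counts in resting Treg. Neither had a window of its own, so these counts give no usage. Traj18 was at 5.01 and 3.21 CPM in activated Treg, against 4.33 and 3.20 CPM in resting Treg, with the groups overlapping. Of the other markers of these cells, Klrb1c, the receptor NK1.1, was at 11.7 and 15.7 CPM in activated Treg, against 2.14 and 3.88 CPM in resting Treg. Zbtb16, the transcription factor PLZF, was at 2.32 and 1.38 CPM in activated Treg, against 0.292 and 0.163 CPM in resting Treg. Neither passed over all genes (edgeR adjusted p 0.2896 and 0.3317).

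Trav3-3 had the highest share of Trav counts in every library and the highest mean share per base. Its length-adjusted share was 5.93% and 6.78% in activated Treg, against 5.65% and 6.65% in resting Treg. The next in the mean over libraries were Trav4-4-dv10, Trav14-2, Trav7-4, Trav12-2, Trav14-3, Trav13-1, Trav14-1, Trav14n-3 and Trav5-4, which ran from 5.01% to 3.19%. Many neighbours in this order overlapped in range: Trav14-2 had 3.48% and 4.70% in activated Treg, against 4.48% and 4.25% in resting Treg, and Trav14-3 had 3.86% and 4.19% in activated Treg, against 4.49% and 3.99% in resting Treg. Segments with dv in their name, such as Trav4-4-dv10, can also be joined to the δ chain.

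Trav7n-4 had the smallest p of all members. It took 2.60% and 2.24% of Trav counts in activated Treg, against 1.09% and 1.02% in resting Treg, with 175 and 138 counts in activated Treg, against 52 and 78 counts in resting Treg. Both activated libraries lay above both resting ones, and the exact 95% counting intervals did not meet (1.88% to 3.01% over the activated libraries, 0.808% to 1.42% over the resting ones). The edgeR log2 fold change was 1.28 ± 0.36 (SE), with an adjusted p of 0.3782 over all genes. The log2 change in usage was 1.20, with a 95% interval from 0.29 to 2.11. It was the only tested Trav segment whose usage interval did not include 0.

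The shares of its copies differed in the opposite direction. Trav7-4 took 4.32% and 4.28% of Trav counts in activated Treg, against 5.23% and 5.27% in resting Treg. Trav7d-4 took 1.21% and 0.470% in activated Treg, against 1.74% and 1.27% in resting Treg. Both had lower shares with no overlap, and neither passed (edgeR adjusted p 0.9877 and 0.8094). The sum of the 3 copies was 8.13% and 6.98% in activated Treg, against 8.05% and 7.56% in resting Treg. The groups overlapped in the sum, with an edgeR log2 fold change of 0.06 ± 0.23 (SE) and an adjusted p of 0.9943. Summing the copies was chosen after the data were seen.

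The sequences of the copies are shown because a few bases set them apart. Trav7-4 and Trav7d-4 differed in 2 of 451 bases compared, and Trav7n-4 differed from each in 7 of 341. In the 120 bases shown, 3 positions differ between the copies; they are in capitals.
Trav7-4, chr14:53461447-53461566, plus strand: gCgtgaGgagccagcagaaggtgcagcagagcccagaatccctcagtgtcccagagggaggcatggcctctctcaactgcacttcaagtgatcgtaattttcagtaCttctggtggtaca
Trav7d-4, chr14:52770101-52770220, plus strand: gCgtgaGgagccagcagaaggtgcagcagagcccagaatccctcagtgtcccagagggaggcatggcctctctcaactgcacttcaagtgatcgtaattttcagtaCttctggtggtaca
Trav7n-4, chr14:53091584-53091703, plus strand: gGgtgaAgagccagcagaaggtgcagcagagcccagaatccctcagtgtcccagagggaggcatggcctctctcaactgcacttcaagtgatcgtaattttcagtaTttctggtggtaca
Of the windows of Trav7n-4 50.7% occur in no other annotated transcript, against 24.9% of those of Trav7-4 and 21.9% of those of Trav7d-4. Trav7n-4 is thus the copy with the most sequence of its own. The mouse strain is not given in the labels, and strains are known to differ in these copies.

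In the Trav9-4 and Trav8-2 copy groups neither the leading member nor the sum overlapped between groups. Trav9-4 took 2.81% and 3.64% in activated Treg, against 1.94% and 1.86% in resting Treg. With its copies Trav9d-4 and Trav9n-4 the sum was 3.81% and 4.44% in activated Treg, against 2.65% and 2.56% in resting Treg (edgeR log2 fold change 0.79 ± 0.36, SE; adjusted p 0.6512). Trav8-2, annotated as a pseudogene in GENCODE M21, took 1.41% and 2.33% in activated Treg, against 0.794% and 1.13% in resting Treg. With Trav8d-2 and Trav8n-2, both annotated as functional, the sum was 3.10% and 3.87% in activated Treg, against 2.63% and 2.64% in resting Treg (edgeR adjusted p 0.8669). The largest copy group, Trav14-3 with Trav14d-3-dv8 and Trav14n-3, took 9.99% and 10.8% in activated Treg, against 11.8% and 10.4% in resting Treg, with the groups overlapping.

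**Figure D5:**
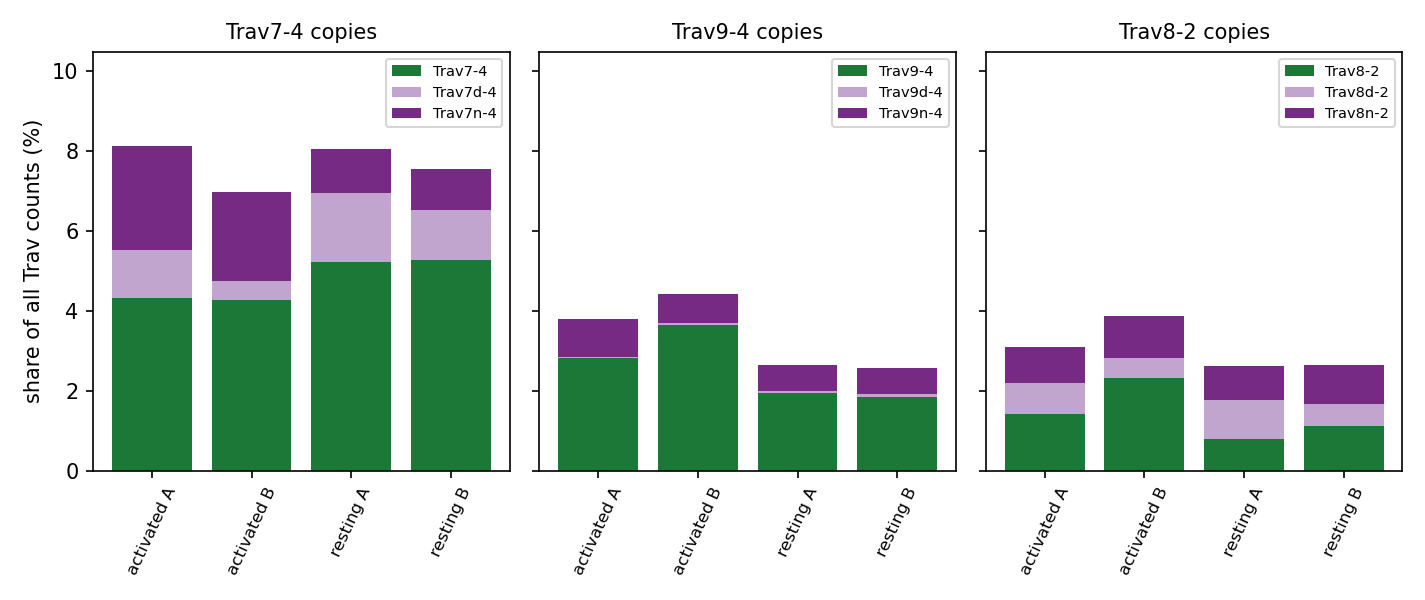
Share of all Trav counts (vertical axis, %) of 3 groups of copies, stacked by copy, in the activated libraries (left 2 bars of each panel) and the resting libraries (right 2 bars). In the Trav7-4 group the Trav7n-4 part is larger in both activated bars while the whole bar overlaps between groups; the Trav9-4 and Trav8-2 bars are taller in the activated libraries.

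With copies summed, the 103 Trav members fell into 47 units, of which 43 passed the filter on low counts. Of these, 6 had higher, 9 had lower and 28 had overlapping shares. For each unit, groups of 2 libraries that do not differ separate fully, in either direction, with probability 0.333. Among the single segments named by the size of their difference, Trav12-2 took 5.77% and 4.41% in activated Treg, against 3.70% and 4.16% in resting Treg. Trav4-4-dv10 took 4.61% and 5.64% in activated Treg, against 3.66% and 4.59% in resting Treg, so the groups were barely apart. Trav6-7-dv9 took 2.44% and 2.90% in activated Treg, against 1.73% and 2.29% in resting Treg. None of these passed over all genes by edgeR (adjusted p 0.8002, 0.9073 and 0.8931 in this order).

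Several other Trav segments had lower shares without overlap. Trav15-1-dv6-1, which can also form δ chains, took 0.744% and 0.567% of Trav counts in activated Treg, against 1.51% and 1.26% in resting Treg, with a log2 change in usage of -1.07 and a 95% interval from -2.19 to 0.05 (edgeR adjusted p for its level 0.6201). Trav14-1 took 3.60% and 3.74% in activated Treg, against 4.14% and 4.55% in resting Treg. Trav3-1 took 0.759% and 0.454% in activated Treg, against 1.09% and 0.916% in resting Treg. Of the listed γδ T cell genes 3 of 7 are in the table, and they summed to 1.34 and 2.07 CPM in activated Treg, against 1.36 and 1.14 CPM in resting Treg. The 5 genes named Trdv are δ chain V segments. They summed to 5.10 and 5.08 CPM in activated Treg, against 7.44 and 5.94 CPM in resting Treg. This was lower without overlap, as Trav15-1-dv6-1 was. The 7 genes named Trgv, γ chain V segments, went the other way. Their sum was 2.72 and 1.97 CPM in activated Treg, against 1.65 and 1.96 CPM in resting Treg, with the groups barely apart. The part of γδ T cells in the share of Trav15-1-dv6-1 was not tested. Trav1, which MAIT cells join to Traj33, took 0.982% and 0.842% in activated Treg, against 1.25% and 1.15% in resting Treg. Traj33 itself was at 2.65 and 2.86 CPM in activated Treg, against 3.11 and 1.66 CPM in resting Treg, with the groups overlapping.

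Most Trav counts came from the part of the locus nearest the J segments. The Trav locus was cut into 3 equal lengths of chromosome 14. The part nearest the J segments, from Trav4-2 to Trav21-dv12, held 39 segments, none of them d or n copies, and took 74.6% and 77.2% of Trav counts in activated Treg, against 72.1% and 75.6% in resting Treg. The middle, from Trav12d-2 to Trav7-2, held 41 segments, 40 of them d or n copies, and took 16.7% and 16.3% in activated Treg, against 17.5% and 15.3% in resting Treg. The far part, from Trav1 to Trav4d-3, took 8.71% and 6.51% in activated Treg, against 10.4% and 9.09% in resting Treg. The far part was lower in both activated libraries, and the other parts overlapped. Since d and n copies have less sequence of their own, place and ease of counting cannot be told apart here.

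Other T cells in the sort would bring their own V segments. The CD8 genes Cd8a and Cd8b1 summed to 81.8 and 35.8 CPM in activated Treg, against 30.4 and 27.3 CPM in resting Treg, and Cd4 was at 1095 and 1245 CPM in activated Treg, against 897 and 967 CPM in resting Treg. The 5 listed invariant NKT cell genes summed to 19.1 and 20.3 CPM in activated Treg, against 6.76 and 7.28 CPM in resting Treg. Most of this difference was in Klrb1c, at 11.7 and 15.7 CPM in activated Treg, against 2.14 and 3.88 CPM in resting Treg. In Traj18 the groups overlapped. Trav11 and Trav11d had at most 1 count in any library, but neither has a window of its own, so these counts give no usage. The part of these cells in the differences in share was not tested. Dntt, the polymerase that adds bases at the joints in the thymus, was at 21.2 and 6.02 CPM in activated Treg, against 7.58 and 1.66 CPM in resting Treg, and Rag1, Rag2 and Ptcra, which act in immature cells, were each at 1.31 CPM or less in every library.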

How the data were processed

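RNA of sorted spleen Treg was sequenced after low-input template-switching amplification (SMART-seq v4, per the labels' protocols). STAR 2.4.0c, featureCounts, DESeq2 and the mm10 build appear, without roles, in the submitters' processing notes; the annotation, strand setting and treatment of multi-mapped reads are not stated there. The authors deposited a table of raw counts for 38924 genes and a table of regularized log2 values. The headings of the count table repeat one replicate number in each group, so its columns were assigned to groups only, as libraries A and B.

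Symbols, coordinates, biotypes and transcript sequences came from GENCODE M21 (mm10); 37607 of the 38924 identifiers matched. Counts were scaled by TMM, filtered with filterByExpr (minimum count 10, minimum total 15; 14235 genes kept) and tested on group alone over the whole table with edgeR 4.0.16 (quasi-likelihood F-test, R 4.3.3), adjusted by Benjamini-Hochberg with 0.05 as threshold. Usage was fitted the same way with the chain total as offset. DESeq2 1.42.0, limma 3.58.1 on the deposited log2 values, other scalings, no filter, shares per base, subgroups and leaving out each library were alternatives. Procedures were tested on simulated data. Shares have Clopper-Pearson 95% intervals. For a count of 0 the limit printed is instead the share of 3 counts, which lies below the upper end of that interval.

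Named were all functional Trbv in the table, the 10 Trav highest per base, and Trav11, Trav11d and Trav1. Also named were up to 6 segments per chain and direction with the largest difference of mean shares (mean share at least 0.5%, no overlap). Trbv10 was added after its values were seen. The members and lists were chosen with earlier results of these data known. No recombination signal sequence was read, since no genome sequence was used. Values of 1 sort marker are not reported here.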

Additional observations from a re-analysis of the deposited data

How the results depend on the processing

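No member was called by edgeR with DESeq2 size factors, with chain totals as offset or with copies summed (chosen after seeing the data). Limma on the deposited log2 values called none either. Each of these settings called 0 genes of the whole table, so their lack of calls is not particular to V segments. Without the filter on low counts edgeR called 0 members and 3.24% of genes. DESeq2 called 0 members and 2.71% of genes. With the replicate numbers as a replicate block, limma on the log2 values called 2 members, Trbv2 lower (adjusted p 0.04666) and Trav7n-4 higher (adjusted p 0.03526), among 1552 of 14235 genes. The labels state independent animals and give same-numbered libraries nothing in common but the number. The deviations of such libraries from the group means correlated with 0.6515 over genes. With only 2 numbers this cannot be told from a chance order, and what such libraries may share was not tested. The difference in the effective number of Trav segments was -0.198 over subgroups in place of segments, against -2.41; the cause was not tested. Leaving out one library gave -3.58 to -1.25 for Trav and -1.02 to -0.479 for Trbv. The difference in summed Trbv level was 11.8 CPM with plain library totals, against -30.7 CPM. Of 41 segments named, the difference in share changed sign in 7 without activated A, 5 without activated B, 4 without resting A and 3 without resting B; Trbv2, Trbv17, Trbv29, Trav9-4 and Trav7n-4 were not among them. Leaving out a library gave edgeR log2 fold changes from 1.15 to 1.40 for Trav7n-4 and from -0.66 to -0.36 for Trbv2. Trav9-4 was at 0.42 without activated B, against 0.90, and Trbv17 at -0.26 without activated A and -0.71 without activated B, against -0.47. Depth limits rare Trav segments: 3 counts are 0.0627% of Trav counts in resting A, the shallowest library for this chain.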
